A study of Mus musculus with 6 samples.

Results

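Lymphoid priming and B lineage genes were followed in cells sorted as hematopoietic stem cells (HSCs) from Cdk19 knockout mice. The set holds 37 genes that mark or build the lymphoid lineage, taken by gene symbol from 30145 genes that had a transcript cluster named with 1 symbol. A transcript cluster is the group of probes that a whole-transcript microarray assigns to 1 gene. By stage, 13 members were grouped as lymphoid-primed, 11 as pro-B, 8 as mature B and 5 as T lineage. A cluster named with the member's symbol alone was found for 34 members, each with a single such cluster, and Rag1, Tcf7 and Gata3 were not analysed here.

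The study hybridised 6 arrays, 3 of CDK19-/- mice (KO) and 3 of wild-type mice (WT), all aged 6 to 8 weeks. Marrow was flushed from tibia, femur and ilium, depleted of lineage-positive cells, stained for an HSC marker set and sorted. CDK19 belongs to the kinase module of Mediator, a coactivator that transcription factors recruit, and the series title names its question as HSC proliferation and p53-driven transcription of p21. The sources used here give neither the deleted part of Cdk19, the sort markers, the sex of the mice nor the number of animals behind an array, so p-values measure the spread between these arrays.

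Lymphoid priming is the low-level use of lymphoid genes by multipotent cells before they commit. In the mouse it is known from progenitors that carry the FLT3 receptor, which switch on Dntt, Il7r and the recombination genes under factors such as Ikaros. The factors encoded by Tcf3 and Ebf1, and later Pax5, then establish the B lineage, in which heavy chains are first displayed with a surrogate light chain. HSCs at the top of the hierarchy are held to use these genes little. In the sorted cells profiled here, though, Dntt and Ighm were bright. By mean over the 6 arrays they exceeded 95.5% and 94.4% of all clusters.

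The label check came first. Cdk19 stood at 11.49, 11.42 and 11.51 on the log2 scale in the KO arrays, against 12.49, 12.45 and 12.38 in the WT arrays. The KO arrays were lower throughout (log2 change -0.97, SE 0.05, limma adjusted p = 0.00032). Signal remained, with a KO mean of 11.47, or 51.2% of the WT level if the values are log2. Whether probes outside a deleted part report this remaining signal was not tested. Of 16 HSC markers, 14 had a cluster, and 1 of these lay at or below the 95th percentile of 1228 olfactory receptor clusters, in KO and in WT. Of the multipotent and lymphoid-primed markers 0 of 7 lay there, and of the neutrophil markers 1 of 11. By mean over the 6 arrays the HSC markers ran from 3.97 for Hoxb5 to 14.3 for Kit. Cd34, Flt3, Cd48 and Mpo of the other lists stood at 15.89, 14.07, 11.31 and 16.9, so these levels do not single out HSCs. Olfactory receptor genes are not used by blood cells, so the 95th percentile of their clusters, 4.53, served as a background, since no detection calls were used here.

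Of the 34 members with a cluster, 29 passed the filter on dim clusters. Among these 29, 11 fell in KO, 0 rose and 18 were not called (limma, Benjamini-Hochberg adjusted p under 0.05 over all 39543 tested clusters). The called members make up 37.9% of those tested, and include Igll1, which passed the filter through its WT level alone. Over all tested clusters, 4.84% were called lower and 2.96% higher, and 5.97% of those with 1 symbol were called lower. At an unadjusted p under 0.05, 16 members were lower and 1 was higher. The median log2 change of the 29 was -0.23, against 0.0 over all tested clusters, and 26 of 29 had a negative change. Every KO array lay below every WT array for 17 members, and above for 1, where 14.9% and 11.6% of all tested clusters did so. In bulk RNA, fewer cells of a type and less RNA per cell cannot be told apart.

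By stage, 6 of 11 tested lymphoid-primed members (54.5%) and 5 of 11 tested pro-B members (45.5%) fell, against 4.84% of all tested clusters. The pro-B count includes Igll1, which passed the filter through its WT level alone. None of the 5 tested mature B members passed, a count of 0, with 2 lower and 1 higher at an unadjusted p under 0.05 (limma). The count was also 0 of 2 for the T members, with 0 at an unadjusted p under 0.05. Median log2 changes were -0.31 for lymphoid-primed, -0.23 for pro-B, -0.14 for mature B and -0.02 for T members. Whether the stages differ from each other was not tested.

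**Figure D1:**
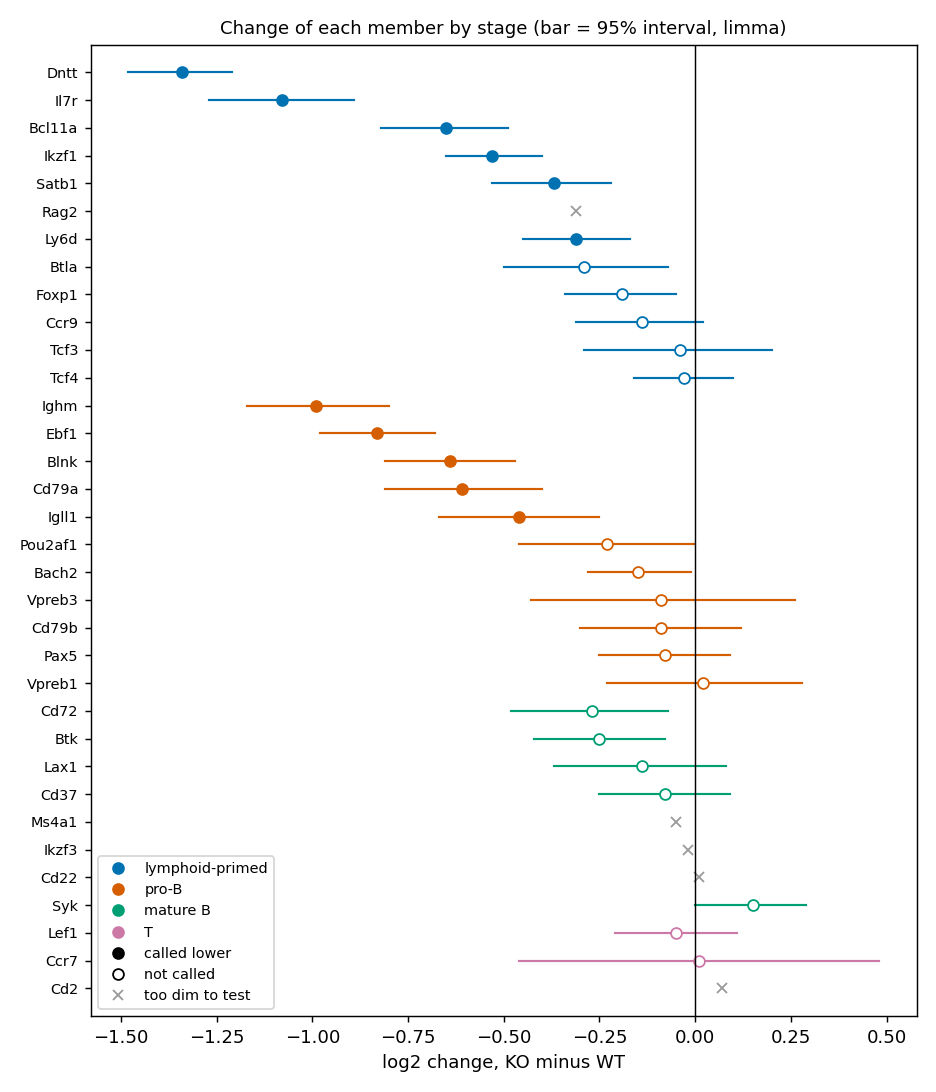
Log2 change, KO minus WT, of the 34 members with a cluster, grouped by stage. Points are the differences of the group means over 3 arrays each, bars are 95% intervals from limma, filled points were called lower, open points were not called, and crosses mark the 5 members too dim to test. The 11 filled points lie among the lymphoid-primed and pro-B members, between -1.34 for Dntt and -0.31 for Ly6d.

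The lymphoid-primed group begins with the enzymes that cut and join antigen receptor genes. Dntt encodes terminal transferase, which adds untemplated bases at the joins. Its level was 11.35, 11.37 and 11.48 in the KO arrays, against 12.77, 12.68 and 12.78 in the WT arrays. The groups were separated by more than 1 log2 unit and each spread little. Dntt averaged 11.4 ± 0.07 in KO and 12.74 ± 0.06 in WT (SD, n = 3 each), a fall of 2.54-fold if the values are log2 (log2 change -1.34, SE 0.06; limma adjusted p = 0.00017). It ranked 79th among all tested clusters by size of fall. Rag2, a subunit of the recombinase that cuts the gene segments, was too dim to test. It read 3.89, 4.02 and 3.84 in KO and 4.31, 4.19 and 4.19 in WT, all below the olfactory level of 4.53. Without the filter Rag2 had a log2 change of -0.31 and did not pass (limma adjusted p = 0.083).

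Among the surface receptors of this group, Il7r encodes the alpha chain of the interleukin-7 receptor, which B progenitors of the mouse need to grow. Il7r was at 5.17, 5.38 and 5.30 in the KO arrays, against 6.33, 6.32 and 6.45 in the WT arrays. The lowest WT array lay almost 1 unit above the highest KO array. The means were 5.28 ± 0.11 in KO and 6.37 ± 0.07 in WT (SD, n = 3 each), 2.12-fold lower in KO (log2 change -1.08, SE 0.08; limma adjusted p = 0.001). Ly6d, a surface protein that marks B-biased common lymphoid progenitors in the mouse, read 4.45, 4.49 and 4.49 in KO and 4.81, 4.74 and 4.81 in WT. It fell by 0.31 (SE 0.06; limma adjusted p = 0.026), with its KO mean at or below the olfactory level, so no fold is given. The Ly6d call was lost whenever 1 array was left out, with limma adjusted p of 0.089, 0.073 and 0.11 without WT array 1, 2 or 3 and 0.076, 0.063 and 0.061 without KO array 1, 2 or 3. Btla, an inhibitory receptor of lymphocytes, read 6.72, 6.90 and 6.82 in KO and 7.25, 7.01 and 7.04 in WT. Its groups did not overlap, and it was not called (log2 change -0.29, SE 0.09; limma adjusted p = 0.12). Ccr9, a chemokine receptor that guides progenitors to the thymus, had a log2 change of -0.14 (95% interval -0.31 to 0.02) and was not called.

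Of the 6 transcription factors of early lymphoid cells in this group, 3 fell. Ikzf1 encodes Ikaros, a zinc finger factor required for lymphoid development. Its level was 12.28, 12.22 and 12.17 in the KO arrays, against 12.72, 12.73 and 12.80 in the WT arrays, without overlap. The means were 12.22 ± 0.06 in KO and 12.75 ± 0.04 in WT (SD, n = 3 each), 1.44-fold lower in KO (log2 change -0.53, SE 0.05; limma adjusted p = 0.0025). Bcl11a, a zinc finger repressor that B lymphopoiesis depends on, read 8.55, 8.44 and 8.58 in KO and 9.13, 9.14 and 9.26 in WT. All its KO arrays were lower, by 1.57-fold on average (log2 change -0.65, SE 0.07; limma adjusted p = 0.0033). Satb1, a chromatin organiser linked to lymphoid potential of HSCs, read 9.81, 9.67 and 9.76 in KO and 10.06, 10.19 and 10.11 in WT. The groups again stood apart (log2 change -0.37, SE 0.06; limma adjusted p = 0.019). Its call was lost without KO array 3 (adjusted p = 0.051) and without WT array 2 or 3 (0.08 each).

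The other factors did not pass. Tcf3 and Tcf4 encode E proteins, the partners that open B lineage genes. Tcf3 averaged 9.26 in KO and 9.31 in WT, a log2 change of -0.04 (95% interval -0.29 to 0.20). Tcf4 averaged 9.9 in KO and 9.93 in WT, a log2 change of -0.03 (95% interval -0.16 to 0.10). For both genes the arrays of the genotypes overlapped, and the intervals leave out a fall as large as that of Ikzf1. Foxp1, a forkhead factor of B cell development, was at 10.1 in KO and 10.3 in WT without overlap and was not called (log2 change -0.19, SE 0.06; limma adjusted p = 0.12).

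**Figure D2:**
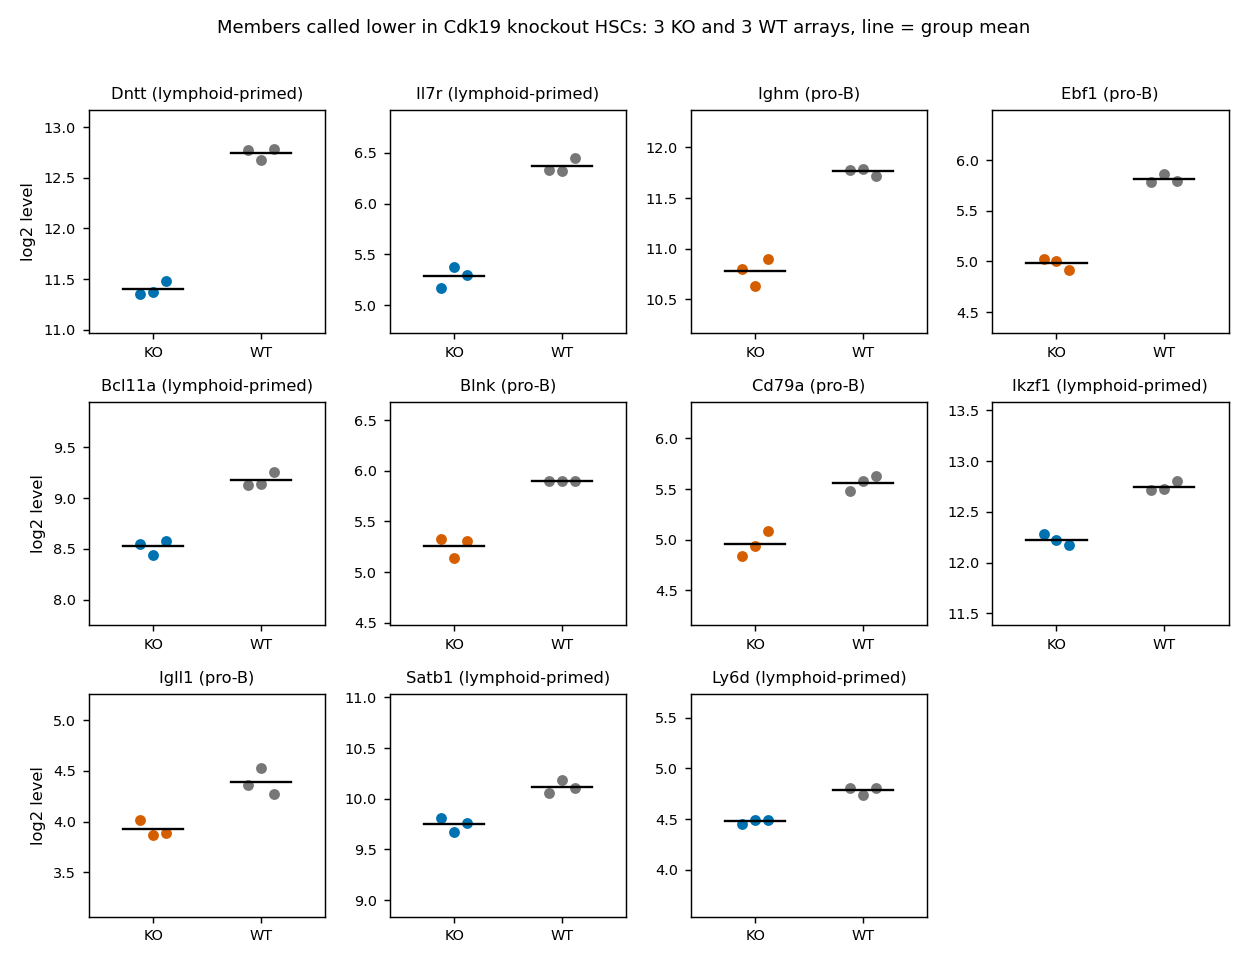
Log2 level of the 11 members called lower, by array, with KO on the left and WT on the right of each panel. Points are single arrays (n = 3 a group), lines are group means, blue marks lymphoid-primed and orange pro-B members, grey marks WT arrays, and each panel spans the same range of log2 units. In each of the 11 panels the 3 KO arrays lie below the 3 WT arrays.

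The pro-B group opens with the commitment factors. Ebf1 encodes early B cell factor, which activates the B lineage programme in the mouse. It read 5.02, 5.0 and 4.92 in the KO arrays, against 5.78, 5.86 and 5.79 in the WT arrays. The spread within a genotype was far smaller than the gap. Ebf1 averaged 4.98 ± 0.05 in KO and 5.81 ± 0.04 in WT (SD, n = 3 each), 1.78-fold lower in KO (log2 change -0.83, SE 0.06; limma adjusted p = 0.0012). Pax5, the factor that locks B lineage identity, was at 4.26 in KO and 4.34 in WT, at or below the olfactory level in both genotypes. Its log2 change was -0.08 (95% interval -0.25 to 0.09). Pou2af1, a coactivator of immunoglobulin promoters, read 4.07, 4.4 and 4.19 in KO and 4.39, 4.44 and 4.52 in WT, with overlap, and was not called (log2 change -0.23, SE 0.10; limma adjusted p = 0.24). Bach2, a repressor active in B progenitors, had a log2 change of -0.15 (SE 0.06; limma adjusted p = 0.20).

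Among the pieces of the pre-B and B cell receptor, Ighm, Cd79a and Igll1 fell. Ighm encodes the mu heavy chain, and unrearranged loci of progenitors also give transcripts from it. It read 10.80, 10.63 and 10.90 in the KO arrays, against 11.78, 11.79 and 11.72 in the WT arrays. The means were 10.78 ± 0.14 in KO and 11.76 ± 0.04 in WT (SD, n = 3 each), 1.98-fold lower in KO (log2 change -0.99, SE 0.08; limma adjusted p = 0.0013). No KO array reached any WT array. Clusters that carry Ighm beside another immunoglobulin segment were not used. Cd79a and Cd79b encode the signalling chains of the receptor, Ig-alpha and Ig-beta. Cd79a read 4.84, 4.94 and 5.09 in KO and 5.48, 5.58 and 5.63 in WT, 1.52-fold lower in KO (log2 change -0.61, SE 0.09; limma adjusted p = 0.0095). Cd79b read 7.22, 7.32 and 7.39 in KO and 7.45, 7.25 and 7.50 in WT, where the groups overlapped (log2 change -0.09, 95% interval -0.30 to 0.12).

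Igll1 and Vpreb1 encode the surrogate light chain. Igll1 read 4.02, 3.87 and 3.89 in KO and 4.36, 4.53 and 4.27 in WT. It fell by 0.46 (SE 0.09; limma adjusted p = 0.027), but both means lay at or below the olfactory level, and it passed the brightness filter through its WT level alone, so it had to differ and its call is a description. That call was lost without WT array 1, 2 or 3 (limma adjusted p = 0.078, 0.078 and 0.051) and without KO array 2 or 3 (0.084 each). Vpreb1 averaged 4.89 in KO and 4.87 in WT, with overlap. Vpreb3, which binds chains of the pre-B receptor, averaged 4.52 in KO and 4.6 in WT, also with overlap. Blnk, the adaptor that carries the receptor signal onward, read 5.33, 5.14 and 5.31 in KO and 5.90 in each of the 3 WT arrays. It was 1.56-fold lower in KO (log2 change -0.64, SE 0.07; limma adjusted p = 0.0045).

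The partner genes Cd79a and Cd79b were set against each other within each array, 1 of 3 pairs chosen after their values were seen. Cd79a minus Cd79b was -2.38, -2.38 and -2.3 in KO and -1.97, -1.67 and -1.87 in WT, a shift of -0.52 log2 units without overlap. An exact permutation test over the arrays gave p = 0.1, the smallest it can reach with 3 arrays a group, so it cannot decide. The other pairs, Ebf1 with Pax5 and Igll1 with Vpreb1, gave the same p.

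The mature B members gave no call. Ms4a1 (CD20), the inhibitory co-receptor gene Cd22 and Ikzf3, encoding the Ikaros relative Aiolos, were too dim to test, with means of 3.54, 3.64 and 3.75 in KO and 3.59, 3.63 and 3.77 in WT. Each of these lies below the olfactory level of 4.53. Cd72, another inhibitory co-receptor gene, read 7.62, 7.59 and 7.84 in KO and 8.03, 7.91 and 7.93 in WT. Btk, the kinase downstream of the receptor, read 10.72, 10.65 and 10.77 in KO and 11.08, 10.89 and 10.92 in WT. For both genes the KO arrays were all lower and neither was called (log2 changes -0.27 and -0.25, SE 0.09 and 0.07; limma adjusted p = 0.12 and 0.088). Syk, the kinase that acts before Btk, had the opposite sign, with 10.49, 10.33 and 10.39 in KO and 10.25, 10.28 and 10.24 in WT (log2 change 0.15, SE 0.06; limma adjusted p = 0.22). The tetraspanin gene Cd37 and the inhibitory adaptor gene Lax1 had log2 changes of -0.08 and -0.14 and overlapping groups. Btk and Syk are also used by myeloid cells and are not specific to B cells.

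Of the T lineage members, Lef1, a partner of beta-catenin, averaged 4.11 in KO and 4.16 in WT. The adhesion receptor gene Cd2 averaged 4.06 in KO and 3.99 in WT and was too dim to test. Both lay below the olfactory level of 4.53. Ccr7, a chemokine receptor of lymphocytes, read 6.43, 6.07 and 6.12 in KO and 6.42, 6.41 and 5.77 in WT. Its arrays differed as much within a genotype as between genotypes, and the interval was wide (log2 change 0.01, 95% interval -0.46 to 0.48).

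**Figure D3:**
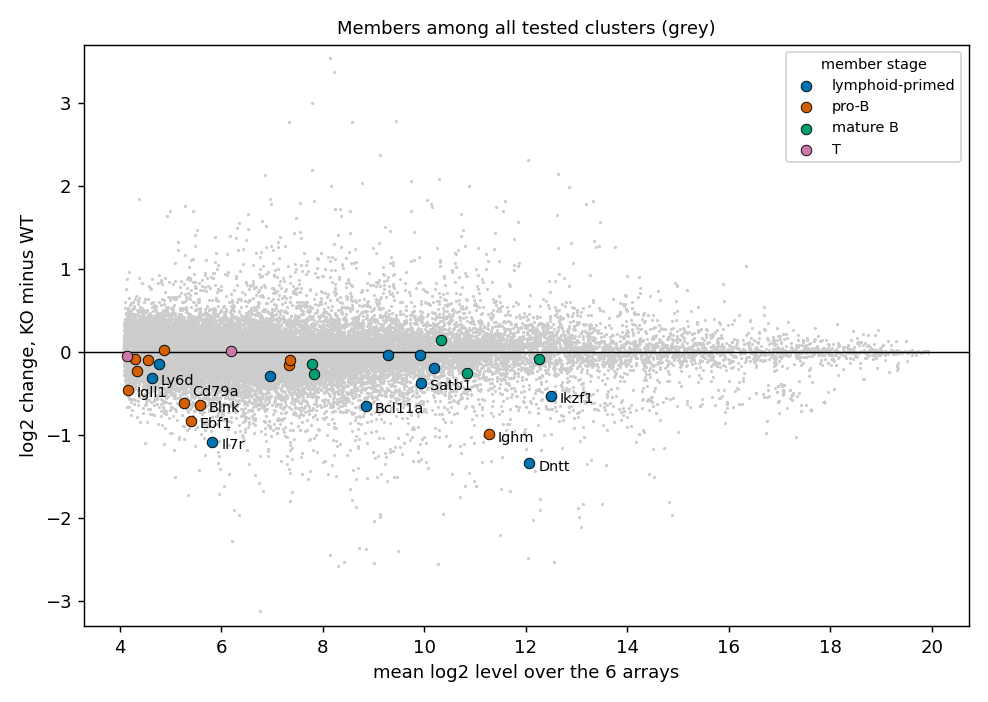
Log2 change, KO minus WT, against the mean log2 level over the 6 arrays. Grey points are all 39543 tested clusters and coloured points the 29 tested members by stage, with the 11 called ones named. The called members lie between mean levels of 4.16 for Igll1 and 12.49 for Ikzf1.

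As an aid to reading the called genes, the RefSeq promoters (GRCm38.p6) of those that changed most are shown, each the 250 bases before an annotated start. Of the 11 called members 9 had an entry, and the 6 of these with the largest change are given, Ebf1 with 2 starts. Capitals mark matches on either strand to cores bound by regulators of lymphoid cells. The cores searched were CCCNNGGG for EBF1, CAGGTG (an E-box), TGGGAA for Ikaros and GAGGAA for PU.1, and in these 7 sequences no capitals overlap.
Dntt, chr19:41029025-41029274, plus strand: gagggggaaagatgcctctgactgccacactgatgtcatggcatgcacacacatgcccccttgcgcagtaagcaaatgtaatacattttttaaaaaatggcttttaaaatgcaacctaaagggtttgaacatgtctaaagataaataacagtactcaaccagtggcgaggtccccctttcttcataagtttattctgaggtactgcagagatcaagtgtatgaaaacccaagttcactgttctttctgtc
Il7r, chr15:9529877-9530126, minus strand: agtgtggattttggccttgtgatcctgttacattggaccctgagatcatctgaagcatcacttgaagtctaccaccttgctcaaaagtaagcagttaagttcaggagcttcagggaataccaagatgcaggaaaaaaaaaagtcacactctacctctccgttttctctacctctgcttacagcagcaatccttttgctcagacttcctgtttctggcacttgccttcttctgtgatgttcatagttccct
Ebf1 (start 1), chr11:44617850-44618099, plus strand: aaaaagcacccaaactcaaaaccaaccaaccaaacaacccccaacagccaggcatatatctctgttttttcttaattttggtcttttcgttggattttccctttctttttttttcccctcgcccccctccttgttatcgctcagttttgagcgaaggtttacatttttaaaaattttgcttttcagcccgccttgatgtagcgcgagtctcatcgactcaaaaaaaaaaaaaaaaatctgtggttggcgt
Ebf1 (start 2), chr11:44619978-44620227, plus strand: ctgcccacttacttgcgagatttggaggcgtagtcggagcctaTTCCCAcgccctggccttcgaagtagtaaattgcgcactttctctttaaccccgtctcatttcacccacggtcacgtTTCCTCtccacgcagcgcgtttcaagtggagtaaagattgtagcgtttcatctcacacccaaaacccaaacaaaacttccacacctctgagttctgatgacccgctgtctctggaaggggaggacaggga
Bcl11a, chr11:24080445-24080694, plus strand: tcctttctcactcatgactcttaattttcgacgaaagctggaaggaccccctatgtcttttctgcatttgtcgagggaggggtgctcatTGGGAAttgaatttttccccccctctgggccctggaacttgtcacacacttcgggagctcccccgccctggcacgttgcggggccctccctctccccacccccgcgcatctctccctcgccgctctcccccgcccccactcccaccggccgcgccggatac
Blnk, chr19:40994222-40994471, minus strand: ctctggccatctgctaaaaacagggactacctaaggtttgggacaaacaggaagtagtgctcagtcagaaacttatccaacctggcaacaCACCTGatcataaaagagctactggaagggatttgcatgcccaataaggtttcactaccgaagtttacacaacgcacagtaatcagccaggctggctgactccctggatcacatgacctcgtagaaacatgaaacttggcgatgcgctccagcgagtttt
Cd79a, chr7:24897247-24897496, plus strand: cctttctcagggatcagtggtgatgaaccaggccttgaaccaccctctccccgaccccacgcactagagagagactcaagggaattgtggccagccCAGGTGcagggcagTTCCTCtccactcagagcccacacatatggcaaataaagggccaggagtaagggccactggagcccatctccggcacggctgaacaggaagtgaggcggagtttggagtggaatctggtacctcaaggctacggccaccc

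Cd79a held an E-box from 154 to 149 bases and a PU.1 core from 140 to 135 bases before its start, and Blnk held an E-box from 160 to 155. The second start of Ebf1 held an Ikaros core from 207 to 202 and a PU.1 core from 130 to 125, and Bcl11a an Ikaros core from 161 to 156. Dntt, Il7r and the first start of Ebf1, which include the called genes with the largest falls, held none of these letters in this window. Among 32536 distinct promoter sequences of the same length, 11.9% held the EBF1 core, 17.3% the E-box, 21.6% the Ikaros core and 23.4% the PU.1 core. These matches are descriptions of sequence and were not set against binding data.

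Other genes of the same pathways were taken from lists that contain no members. Of 29 tested lymphoid and B lineage transcription factors, 10 fell and 7 rose, with a median log2 change of -0.05. By the smallest p, Sox4, a factor of B progenitors, fell to 12.53 ± 0.08 in KO, against 13.6 ± 0.11 in WT (SD, n = 3 each; log2 change -1.07, SE 0.07; limma adjusted p = 0.00067). Notch1 fell by 0.91 and Lyl1 by 1.33, while Foxo1, which Il7r and the recombination genes depend on in B progenitors, rose by 0.91 (limma adjusted p = 0.00088, 0.0014 and 0.0014). The Id genes encode inhibitors that bind E proteins and keep them off DNA, and were singled out after their values were seen. Id2 read 8.31, 8.20 and 8.57 in KO and 7.61, 7.39 and 7.36 in WT (log2 change 0.91, SE 0.12; limma adjusted p = 0.0071). Id1 was higher by 1.06 and Id3 by 0.34 in KO (limma adjusted p = 0.017 and 0.038). The Id1 call was lost without KO array 1 (adjusted p = 0.052) or WT array 1, 2 or 3 (0.065, 0.062 and 0.063). The Id3 call was lost with no filter (0.06), with arrays shifted to a common median (0.08) and without any single array except KO array 2 (0.086 to 0.14). It was also lost with the replicate number as a block (limma adjusted p = 0.12). With 1 array left out, 6 to 8 of these factors were called lower and 3 to 7 higher. The lowest counts were 6 lower, without any 1 of the WT arrays, and 3 higher, without WT array 2 or 3.

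Of 18 tested genes of interleukin-7 and FLT3 receptor signalling, 2 fell and 3 rose (median log2 change 0.05). The receptor gene Flt3 fell to 13.62 ± 0.05 in KO, against 14.51 ± 0.02 in WT (SD, n = 3 each; log2 change -0.89, SE 0.04; limma adjusted p = 0.00022). The feedback inhibitor genes Cish and Socs3, which STAT factors switch on, rose by 1.13 and 0.75 (limma adjusted p = 0.0052 and 0.0021). Their relatives Socs1 and Socs2 had log2 changes of 0.10 and 0.01 and were not called. Cish read 7.86, 7.42 and 7.81 in KO and 6.46, 6.53 and 6.71 in WT. The survival gene Mcl1 rose by 0.32, a call lost without WT array 2 (limma adjusted p = 0.051), and 1 gene in place of 2 was called lower without any WT array or without KO array 1 or 2.

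Of 10 tested genes of V(D)J joining, 1 fell: Xrcc6, a DNA end-binding subunit, by 0.38 (SE 0.06; limma adjusted p = 0.015). That call was lost without WT array 1, 2 or 3 (adjusted p = 0.061, 0.065 and 0.075). Its partner Xrcc5 had a log2 change of 0.10 and was not called. Of 18 tested genes of B cell receptor signalling, 2 fell and 3 rose (median log2 change 0.02). Malt1, a protease of the signalling complex that leads to NF-kB, had the smallest p, with 12.11 ± 0.12 in KO and 10.68 ± 0.02 in WT (SD, n = 3 each; log2 change 1.43, SE 0.07; limma adjusted p = 0.00022). Pik3ap1, an adaptor for PI3 kinase, rose by 0.42, and the phosphatase gene Ptpn6 fell by 0.47. Vav1, an exchange factor, fell by 0.47, a call lost without WT array 2 or 3 (limma adjusted p = 0.051 and 0.054). Of 9 tested early T genes, the Notch target Hes1 rose by 0.38 (limma adjusted p = 0.018), a call lost without any WT array or without KO array 3 (0.055 to 0.076).

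**Figure D4:**
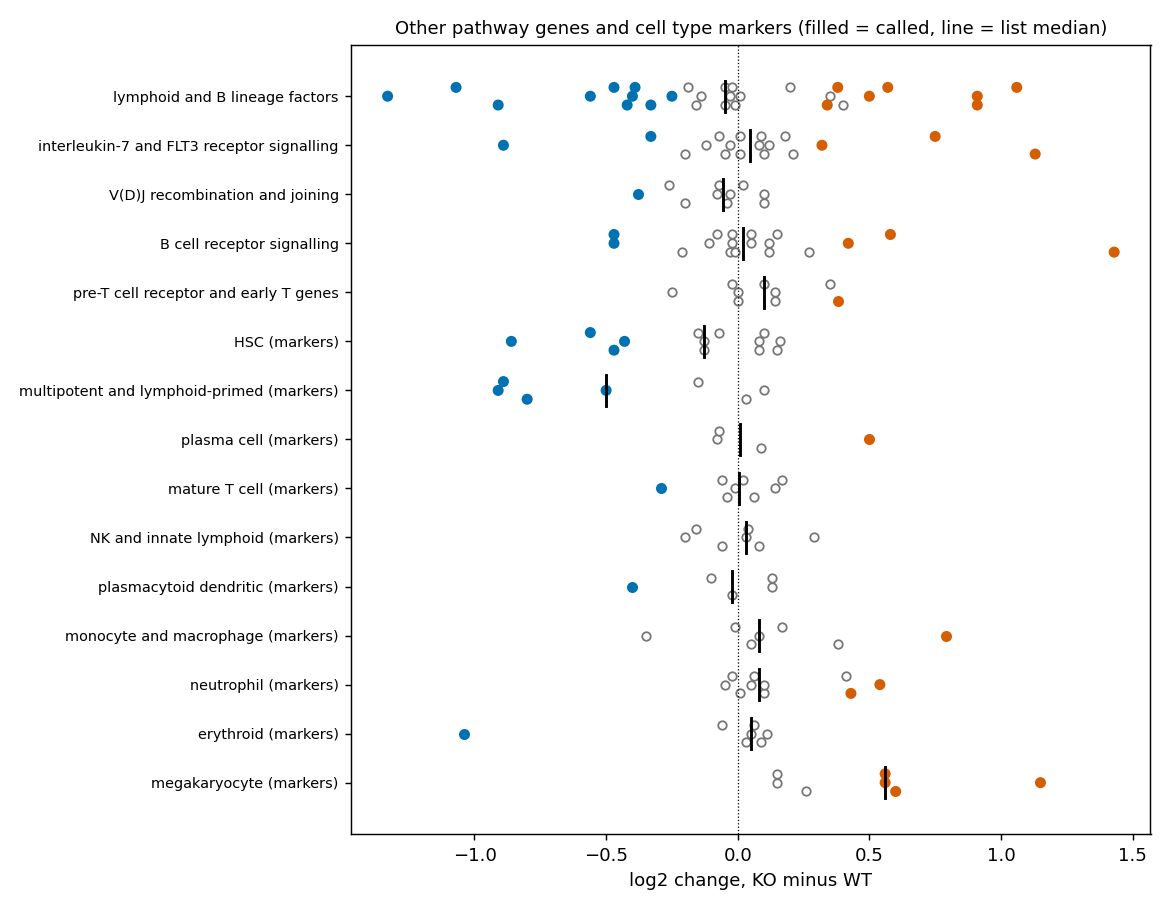
Log2 change, KO minus WT, of the tested genes of 5 other pathway lists and 10 lists of cell type markers. Blue points were called lower, orange points higher, open points were not called, and lines are list medians. The multipotent and lymphoid-primed markers have their median at -0.50 and the megakaryocyte markers at 0.56.

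Markers of other cells moved beside these genes as follows, and their part in the changes of the members was not tested. Of 7 multipotent and lymphoid-primed markers, all of them tested, 4 fell (Flt3, Notch1, Cd69 and Il12a). Cd34, Cd48 and Cd52 were not called, with log2 changes of -0.15, 0.03 and 0.10. The list's summed level was 17.26 to 17.34 in KO and 17.68 to 17.77 in WT. Of 13 tested HSC markers 4 fell and 0 rose (Hlf, Kit, Meis1 and Robo4), with sums of 14.33 to 14.41 in KO and 14.87 to 14.88 in WT. The Robo4 call was lost in every run that left out 1 array. It was also lost with no filter and with the replicate number as a block (limma adjusted p = 0.056 and 0.087). At an unadjusted limma p under 0.05, Tek, Vwf and Fgd5 of this list had log2 changes of 0.16, 0.15 and -0.15. None of these was called. Of 7 tested megakaryocyte markers 4 rose (F2r, Itga2b, Gp9 and Itgb3, the last lost without KO array 1 or 3 or WT array 1 or 2), with sums of 10.99 to 11.06 in KO and 10.11 to 10.17 in WT. Of 8 tested mature T cell markers 1 fell (Cd28), with sums of 8.7 to 8.71 in KO and 8.72 to 8.81 in WT. The Cd28 call was lost in every run that left out 1 array. It was also lost with no filter, after quantile normalization and with the replicate number as a block (limma adjusted p = 0.069, 0.069 and 0.14). Of the 11 mature T cell markers with a cluster, 5 lay at or below the olfactory level in KO and in WT. These include Cd3e, at 3.84 in KO and 3.72 in WT, and Cd8a, at 3.9 in KO and 3.83 in WT. Above that level lay Cd28, at 7.12 in KO and 7.41 in WT, Cd4, at 6.46 in KO and 6.29 in WT, and Thy1, Cd247, Cd3d and Cd5, between 4.56 and 5.02 in both. Of 7 tested NK markers 0 were called (limma), and 2 passed an unadjusted p of 0.05: Nkg7, at 12.99 in KO and 12.7 in WT, and Klrb1c, at 4.41 in KO and 4.61 in WT. Of 5 tested plasmacytoid dendritic markers Irf8 fell by 0.40, a call lost without WT array 1, 2 or 3 (limma adjusted p = 0.053, 0.081 and 0.086), with sums of 11.61 to 12.18 in KO and 11.66 to 11.93 in WT. Of 4 tested plasma cell markers Xbp1 rose by 0.50 (lost without WT array 2 or 3), and sums were 11.86 to 12.05 in KO and 11.38 to 11.56 in WT. Such sums mostly follow the brightest gene of a list and do not describe its other genes. Cd69, the brightest of the multipotent and lymphoid-primed list, averaged 16.43 in KO and 16.93 in WT. Xbp1 averaged 11.89 in KO and 11.39 in WT, and Kit of the HSC list 14.06 and 14.53. F2r of the megakaryocyte list averaged 10.46 in KO and 9.31 in WT, and Bst2 of the plasmacytoid list 11.76 and 11.63. Among myeloid and erythroid markers, Cd14 of 7 tested monocyte genes rose and Car1 of 7 tested erythroid genes fell. Prtn3 and Ctsg of 10 tested neutrophil genes rose; without WT array 2 or 3, or without KO array 1 or 3, neither was called, Prtn3 was lost without WT array 1 and Ctsg without KO array 2. Prtn3 was also lost with no filter (limma adjusted p = 0.064), with arrays at a common median (0.063) and with no intensity trend (0.05). With the replicate number as a block both were lost (limma adjusted p = 0.059 for Prtn3 and 0.073 for Ctsg). Of the called genes, Irf8, Xbp1, Flt3, Notch1 and Hes1 each stand in more than 1 list, as do some genes that were not called, such as Vwf.

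Averaged over members, the arrays of a genotype lay close together. The mean level of the 29 tested members was 7.39, 7.35 and 7.39 in the KO arrays, against 7.72, 7.72 and 7.69 in the WT arrays. For the 11 tested pro-B members it was 5.67 in each of the 3 KO arrays and 6.05, 6.07 and 6.02 in the WT arrays. For the 5 tested mature B members, none of them called, it was 9.78, 9.66 and 9.8 in KO and 9.93, 9.84 and 9.83 in WT. In each case every KO array lay below every WT array. The first 2 of these means include the called members.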

How the data were processed

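The values deposited by the authors, for 65956 transcript clusters on 6 arrays (3 KO and 3 WT), were read as log2. The submitters' processing notes name MAS5, with no version or role. Normalization, build and log base: not given in the sources used here, so each log2 value and fold rests on that reading. Array medians lay between 4.4 and 4.48. No detection calls were used. The number of arrays limits the precision. Per the labels, 6 ug of total RNA was biotin-labelled, and the arrays are biological replicates.

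Clusters were named by platform symbol, after repeats of a symbol in a cell were merged: 30604 had 1 symbol, 2146 several and 33206 none. The dimmest 40% by mean over all arrays (limit 4.09) were left out. Genotype was the sole model term, in limma 3.58.1 under R 4.3.3 (empirical Bayes with intensity trend), two-sided, Benjamini-Hochberg adjusted over 39543 clusters. SE are moderated. Tables used Python 3.11.15 and pandas 2.3.3, plots matplotlib 3.10.9. The pipeline was tested on simulated data. Full values are given for Cdk19, each called member and the 4 uncalled members with the largest change, and up to 4 called genes of other lists by smallest p; further genes were named after their values were seen. The members, lists and tests were chosen with earlier results of these data known. Summed levels are log2 of summed linear values over list genes with a cluster. Alternatives were the filter, scaling, trend, replicate block and leaving out each array.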

Additional observations from a re-analysis of the deposited data

How the results depend on the processing

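The count of members called lower was 11 with no filter, without the intensity trend, after quantile normalization and after all arrays were set to 1 median, 9 with a stricter filter that left out the dimmest 60% and tested fewer members, and 8 to 10 with 1 array left out. It was 8 with the replicate block, where Satb1 (adjusted p = 0.093), Ly6d (0.11) and Igll1 (0.08) were lost. Outside the members, the block also lost the calls of Robo4, Cd28, Irf8, Prtn3, Ctsg, Id3, Hes1 and Xrcc6. Gfi1, Ikzf2, Lmo2, Pik3cd and Fcgr2b were lost there as well. Across all these genes outside the members the limma adjusted p with the block ran from 0.053 to 0.16. No member was called higher under any of these settings. With 1 array left out, 4 to 5 lymphoid-primed, 4 to 5 pro-B, 0 mature B and 0 T members were called lower, and the median log2 change of the members ran from -0.24 to -0.21. Dntt, Il7r, Ikzf1, Bcl11a, Ebf1, Cd79a, Ighm and Blnk kept their calls in all 12 alternatives. Brightness near the olfactory level limits what 9 members in both genotypes can show. Over all clusters the count called lower was 764 to 1508 and the count called higher 542 to 971 with 1 array left out, against 1914 and 1172 with all arrays. With the replicate block these counts were 1083 and 630. Same-numbered KO and WT arrays had correlations of deviations of -0.138, -0.097 and 0.025, and unlike-numbered arrays had -0.127 to 0.209. These values cannot decide whether the numbers pair the arrays, since deviations from a shared group mean are tied to each other. Signs turned for uncalled members near 0: Ccr7 was -0.02 with a common median, and between -0.21 (without WT array 3) and 0.12 with 1 array left out, -0.10 without KO array 1. Vpreb1 was -0.01 with a common median and -0.09 to 0.12 with 1 array left out, Tcf3 -0.12 to 0.05 and Tcf4 -0.06 to 0.0, each turning without KO array 2. The cause was not tested. The 34 members with a cluster had 1 each, so averaging a member's clusters was not run.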
